A study of Homo sapiens with 6 samples.

Results

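The genes described here are 38 members of the ATF4 stress response, serine synthesis and amino-acid transport. They were taken by gene symbol out of 19202 genes in the count table, from a list chosen with earlier results of these data known. All 38 symbols were found. RNA sequencing compared MHCC97H cells resistant to sorafenib with sorafenib-sensitive control cells, in 3 resistant and 3 control libraries. MHCC97H is a human hepatocellular carcinoma line, and sorafenib blocks RAF and several receptor kinases and is given in advanced liver cancer. The labels give no transgene or knockdown in either group. They do not say whether the resistant cells were a single clone, whether drug was present at harvest, or whether the replicates of a group were separate cultures, so the p-values rest on variation between libraries that could be technical.

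ATF4 is a basic leucine zipper transcription factor whose protein is made mainly by translational control. When amino acids run short or unfolded proteins collect, kinases such as GCN2 and PERK phosphorylate the initiation factor eIF2, most translation slows, and ATF4 protein accumulates. ATF4 then pairs with C/EBP and other leucine zipper proteins and activates genes for amino acid import, serine and asparagine synthesis and mitochondrial folate metabolism, and, under lasting stress, the factors DDIT3 (CHOP) and ATF3. The RNA level of ATF4 is therefore not a measure of its protein.

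The element through which ATF4 and C/EBP proteins bind these genes, the C/EBP-ATF response element, was searched for as the letters TGATGNAA on both strands in RefSeq promoter windows (GRCh38.p14, 250 bases before to 50 after a start). Such windows were at hand for 31 of the 38 members, and 10 of these 31 had a match, against 4.46% of the 27305 genes in the RefSeq promoter table. By window, 12 of 52 windows of members had a match, against 3.62% of 35116 windows. These 6 sites, each on its gene's strand, are shown because they span members that were higher, lower or not called in resistant cells, where a call is an adjusted p below 0.05 in edgeR's quasi-likelihood test. Capitals mark the matched letters.
ASNS: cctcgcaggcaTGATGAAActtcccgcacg
CEBPG: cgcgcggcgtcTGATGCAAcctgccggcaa
CHAC1: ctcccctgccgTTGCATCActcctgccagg
ATF3: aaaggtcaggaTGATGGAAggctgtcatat
SLC1A5: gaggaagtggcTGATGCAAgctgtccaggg
SLC1A4: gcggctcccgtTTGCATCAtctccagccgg
The ASNS site is at chr7:97872458-97872487 on the minus strand, and its match begins at -68 from the start. The CEBPG site is at chr19:33374060-33374089 (plus strand, match at -42), and the CHAC1 site at chr15:40953251-40953280 (plus strand, match at -209). The ATF3 site is at chr1:212565205-212565234 (plus strand, match at -191). The SLC1A5 site is at chr19:46784893-46784922 (minus strand, match at -97), and the SLC1A4 site at chr2:64989381-64989410 (plus strand, match at -7). The starts of CEBPG, SLC1A4 and SLC1A5 used here are each the most downstream of that gene's RefSeq starts in the table, and all 6 starts lie inside the GENCODE 29 gene spans, by 73 bases for ATF3 up to 3780 bases for SLC1A5. In CHAC1 and SLC1A4 the match is on the opposite strand and is printed as its reverse complement. Of the 10 members with a match, SLC1A5 and SLC38A1 were called higher, ATF3 and CHAC1 lower, and 6 were not called. Of all 31 members with a window, 7 were called higher, 6 lower, 17 were not called and 1 was not tested. Among all tested genes 24.1% were called, and whether a match goes with a call was not tested. The cyclic AMP response element, TGACGTCA, was in 1 member, PPP1R15A, against 2.25% of genes. No member had both motifs, and a match is a description of the letters only.

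The deposited counts summed to 3745068, 4280175 and 4961907 in resistant replicates 1, 2 and 3, and to 1913469, 5345272 and 3401241 in control replicates 1, 2 and 3. Levels are given as CPM, the counts divided by library size after TMM scaling, and log2FC stands for the log2 fold change of resistant over control cells. The labelled cell type was checked against 13 hepatocyte and liver cancer markers, which summed to 1793 to 2131 CPM in resistant and 1928 to 2394 CPM in control libraries. Keratins KRT8 and KRT18 made up most of that sum, 3 of the 13 were called lower, and APOA2 was at 0 in every library. ALB averaged 5.53 CPM in resistant and 17.3 CPM in control libraries, and AFP 3.29 and 2.82 CPM. APOA1, TTR and GPC3 averaged at most 0.517 CPM in either group, while HNF4A averaged 41.4 and 39.8 CPM. The sum therefore says little about markers other than the keratins. Leukocyte markers (7 genes) summed to 5.93 to 9.17 CPM in resistant and 4.90 to 10.3 CPM in control libraries, with PTPRC the most abundant, and fibroblast markers (8 genes) to 11.8 to 43.0 and 15.9 to 37.8 CPM, with LUM the most abundant. Endothelial markers (6 genes), led by KDR, summed to 135.8 CPM in resistant replicate 3, to 40.6 and 51.5 CPM in the other resistant libraries and to 50.5 to 68.6 CPM in control libraries. In resistant replicate 3 VWF had 26.2 CPM, against at most 1.76 CPM in any other library, and CDH5 19.2 against at most 3.09 CPM. PECAM1 had 41.7 CPM there, against 6.50 and 12.9 CPM in the other resistant libraries but 24.9 to 43.2 CPM in control libraries. The fibroblast marker COL1A2 had 13.9 CPM there, against at most 4.11 CPM in any other library. The source of these reads was not tested. Without resistant replicate 3, 15 members were called, and these were the 15 of the full comparison.

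Of the 38 members, 36 passed the filter on low counts and 2, MTHFD2 and PYCR1, did not. Among the 36, 8 rose and 7 fell at an adjusted p below 0.05 in edgeR's quasi-likelihood test, and 21 were not called. Of all 10804 tested genes 24.1% were called, 11.7% higher and 12.3% lower, against 22.2% and 19.4% of the members. The tested members were more abundant than the tested genes at large, with a median level of 154.7 CPM against 34.2 CPM, and the part of abundance in these shares was not tested. The members that were called and also changed by at least 1.5-fold were 5 of 36, beside 12.9% of all tested genes. All resistant libraries exceeded all control libraries for 12 members and stayed below them for 10, beside 19.2% and 18.9% of all tested genes. The median log2FC of the members was 0.03, beside -0.006 over all tested genes. Of the called members, ATF5, DDIT3, CEBPB, SHMT1, SHMT2 and SLC1A5 share 6.95 to 24.7% of their exon bases with other annotated genes, mostly on the opposite strand, and ATF4 has 4 pseudogenes named after it. The labels do not state the use of strand, so reads of such partners cannot be told apart. In bulk RNA, fewer cells expressing a gene and less RNA per cell cannot be told apart either. Without control replicate 1 and resistant replicate 3 together, 5 members were called higher in place of 8.

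**Figure D1:**
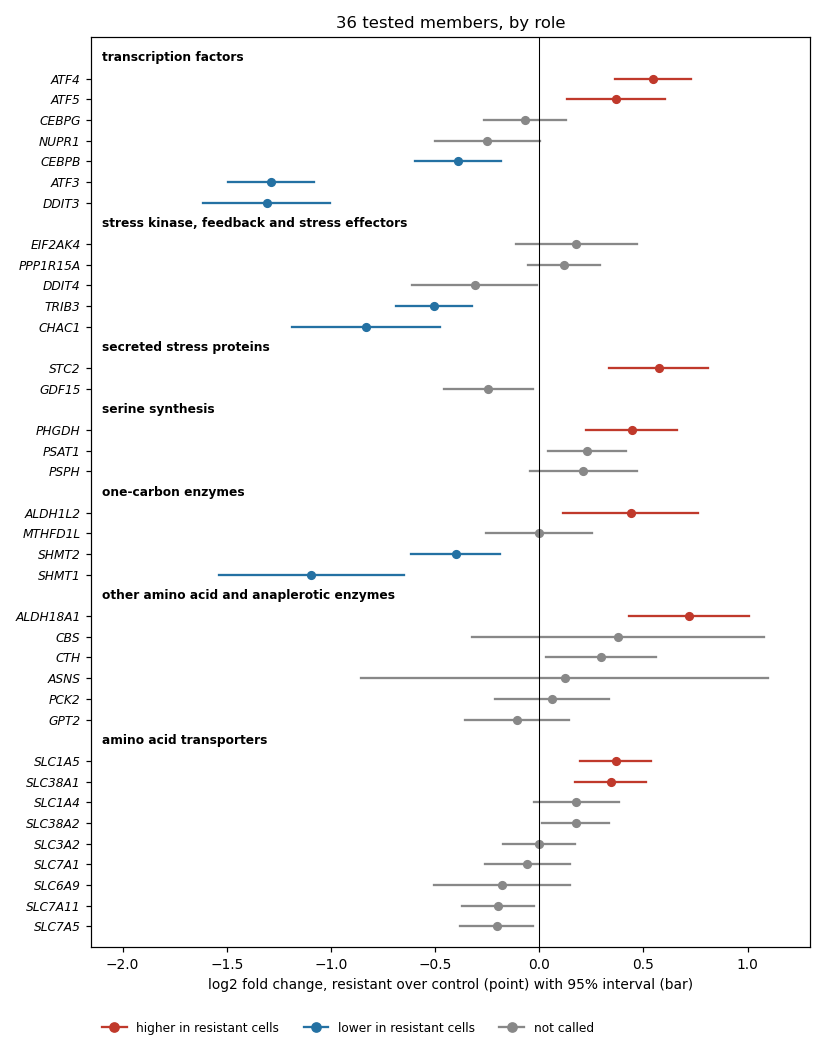
Log2 fold change of the 36 tested members, resistant over control, with the 95% interval of edgeR's fit, grouped by role. Within the transcription factors ATF4 (0.55) and ATF5 (0.37) lie to the right of 0 while ATF3 (-1.29) and DDIT3 (-1.31) lie to the left.

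Among the 7 transcription factors, ATF4 and ATF5 rose while ATF3, DDIT3 and CEBPB fell. ATF4 (Entrez 468), the central factor of the response, had 663, 589 and 586 CPM in resistant libraries, against 413, 441 and 403 CPM in control libraries. The groups did not overlap, and the log2FC was 0.55 (SE 0.09, adjusted p = 1.16e-05 in edgeR). ATF5, a related leucine zipper factor linked to mitochondrial stress, had 178, 143 and 149 CPM in resistant against 105, 133 and 122 CPM in control libraries. Its log2FC of 0.37 (SE 0.12) passed edgeR's test with an adjusted p of 0.016. That call was lost in edgeR without resistant replicate 1 (adjusted p = 0.105) or control replicate 1 (0.0816). Of its exon bases 21.9% are shared with NUP62 on the other strand.

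The stress-induced factors moved the other way. DDIT3, which encodes the CHOP protein associated with cell death under lasting endoplasmic reticulum stress, had 33.8, 36.9 and 47.7 CPM in resistant libraries, against 109, 85.9 and 102 CPM in control libraries. ATF3, induced by many stresses, had 169, 151 and 184 CPM in resistant libraries, against 441, 370 and 424 CPM in control libraries. For both genes the highest resistant library was well below the lowest control library. The log2FC was -1.31 (SE 0.15, adjusted p = 1.23e-08 in edgeR) for DDIT3 and -1.29 (SE 0.10, adjusted p = 8.21e-13) for ATF3. CEBPB, a C/EBP partner of ATF4, had 169, 157 and 155 CPM in resistant against 195, 209 and 226 CPM in control libraries. Its log2FC was -0.39 (SE 0.10, adjusted p = 0.00408 in edgeR), with an adjusted p of 0.0541 without control replicate 3. CEBPG, which also pairs with ATF4, averaged 230 ± 14.2 CPM in resistant and 242 ± 10.5 CPM in control libraries (SD, n = 3 each), with a 95% interval of the log2FC from -0.27 to 0.13. The nuclear stress protein gene NUPR1 averaged 94.4 ± 10.4 and 111 ± 13.4 CPM in resistant and control libraries and was not called (adjusted p = 0.146 in edgeR).

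Of the 5 genes for the sensing kinase, feedback and stress effectors, TRIB3 and CHAC1 fell. None was called higher in edgeR, with 0 also at an unadjusted p under 0.05, in DESeq2 and in limma-voom. Of all tested genes 11.7% were called higher and 12.3% lower, so a count of 0 among 5 genes says little. TRIB3, a pseudokinase that restrains ATF4, had 563, 569 and 521 CPM in resistant libraries, against 849, 683 and 821 CPM in control libraries (log2FC -0.51, SE 0.09, adjusted p = 4.7e-05 in edgeR). CHAC1, an enzyme that degrades glutathione, had 27.6, 26.3 and 31.5 CPM in resistant libraries, against 43.2, 49.3 and 59.0 CPM in control libraries (log2FC -0.83, SE 0.18, adjusted p = 0.000418). Neither gene's groups overlapped. EIF2AK4, the GCN2 kinase that senses uncharged tRNA, averaged 69.7 ± 7.62 CPM in resistant and 61.9 ± 5.37 CPM in control libraries. PPP1R15A (GADD34), which directs a phosphatase back to eIF2, averaged 792 ± 27.7 CPM in resistant and 730 ± 52.2 CPM in control libraries. The groups overlapped for both, and the 95% intervals of the log2FC ran from -0.11 to 0.47 for EIF2AK4 and from -0.06 to 0.29 for PPP1R15A. DDIT4, an inhibitor of mTORC1, had a log2FC of -0.31 (95% interval -0.61 to -0.01) that did not pass adjustment (adjusted p = 0.129 in edgeR). Of the DDIT4 exon bases 48.5% are shared with its antisense gene DDIT4-AS1.

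The secreted stress proteins differed from each other in their calls. STC2, stanniocalcin 2, had 155, 194 and 198 CPM in resistant against 144, 120 and 108 CPM in control libraries. The increase had a log2FC of 0.57 (SE 0.12) and an adjusted p of 0.000302 in edgeR. The lowest resistant library, replicate 1, was close to the highest control library, also replicate 1. GDF15, a stress hormone that reduces appetite, had 248, 212 and 267 CPM in resistant and 241, 313 and 302 CPM in control libraries, with overlapping groups and a log2FC of -0.24 (adjusted p = 0.0863 in edgeR). It passed without control replicate 1, with a log2FC of -0.34 and an adjusted p of 0.0255.

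**Figure D2:**
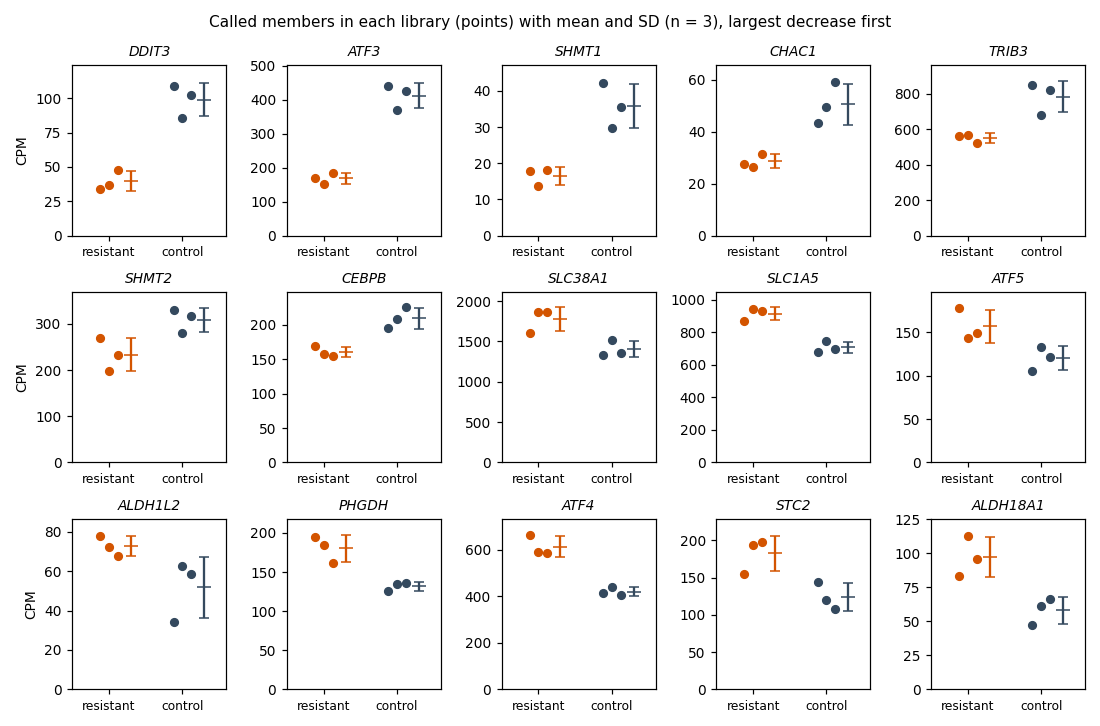
CPM of the 15 called members in each of the 3 resistant and 3 control libraries (points), with the group mean and SD beside them, ordered from the largest decrease to the largest increase. In every panel the resistant and control points do not overlap, and the gap is widest in proportion for DDIT3 and ATF3.

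Set against ATF4 RNA within each library, the level per transcript length of DDIT3, ATF3, TRIB3 and CHAC1 was lower in every resistant library. This follows from the values above, since ATF4 was higher and each of these genes lower in every resistant library. The ratio of DDIT3 to ATF4 was 0.0966, 0.119 and 0.154 in resistant libraries, against 0.50, 0.369 and 0.48 in control libraries. The ratio of ATF3 to ATF4 averaged 0.273 ± 0.0333 in resistant and 0.98 ± 0.127 in control libraries (SD, n = 3 each). For TRIB3 the ratio averaged 0.729 ± 0.0478 in resistant and 1.52 ± 0.232 in control libraries, and for CHAC1 0.051 ± 0.0069 and 0.132 ± 0.0242. The ratio of ATF5 to ATF4 overlapped between the groups, at 0.249 ± 0.0125 in resistant and 0.279 ± 0.0262 in control libraries. These ratios were chosen after the values of the genes were seen and carry no test of their own. GDF15, NUPR1, DDIT4 and PPP1R15A were not set against ATF4.

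**Figure D3:**
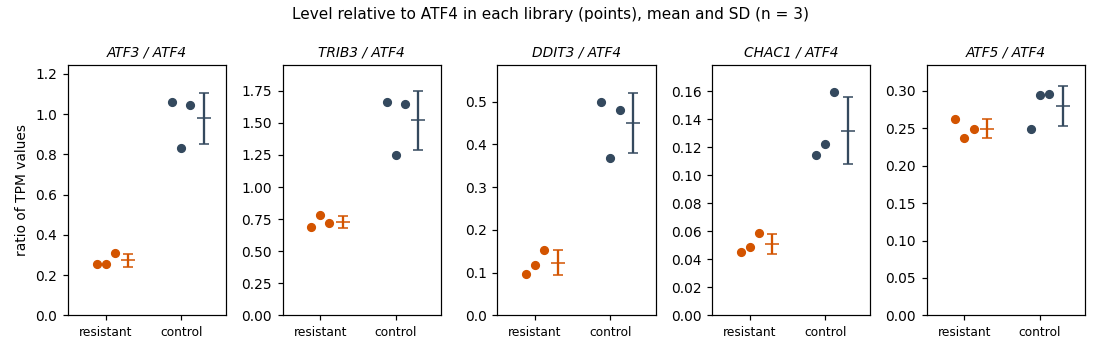
Ratio of TPM, the level per transcript length, of 5 members to that of ATF4 in each library (points), with mean and SD of 3 libraries. The resistant points lie below the control points for ATF3, TRIB3, DDIT3 and CHAC1, and overlap them for ATF5. For the genes that lie below, this follows from their own decrease and the increase of ATF4.

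Of the 3 serine synthesis genes only PHGDH passed the test. All 3 had higher values in each resistant library than in any control library, as did 19.2% of all tested genes. PHGDH, the first enzyme of the pathway from 3-phosphoglycerate, had 195, 185 and 161 CPM in resistant libraries, against 125, 135 and 136 CPM in control libraries (log2FC 0.44, SE 0.11, adjusted p = 0.00219 in edgeR). PSAT1, the aminotransferase of the next step, averaged 535 ± 16.7 CPM in resistant and 455 ± 50.9 CPM in control libraries, with a log2FC of 0.23 (95% interval 0.04 to 0.42, adjusted p = 0.0642 in edgeR and 0.0418 in DESeq2). PSPH, the phosphatase that completes serine, averaged 90.1 ± 3.87 and 77.7 ± 2.26 CPM in resistant and control libraries (log2FC 0.21, adjusted p = 0.241 in edgeR). The CPM of the 3 genes summed to 839, 789 and 789 in resistant libraries, against 597, 690 and 706 in control libraries.

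Of the 5 one-carbon enzymes, which pass the carbon of serine to folate, SHMT1 and SHMT2 fell, ALDH1L2 rose and MTHFD1L was not called. SHMT1, the cytosolic serine hydroxymethyltransferase, had 17.9, 13.6 and 18 CPM in resistant libraries, against 42.2, 29.8 and 35.5 CPM in control libraries (log2FC -1.09, SE 0.22, adjusted p = 0.000217 in edgeR). SHMT2, its mitochondrial counterpart, had 270, 198 and 232 CPM in resistant against 329, 280 and 317 CPM in control libraries (log2FC -0.40, SE 0.10, adjusted p = 0.00377). The SHMT2 call was lost without resistant replicate 2, its lowest library (adjusted p = 0.0698 in edgeR, log2FC -0.29). Per length, SHMT2 was 14.7, 14.1 and 12.5 times SHMT1 in resistant libraries, against 7.58, 9.15 and 8.67 times in control libraries, with no overlap. That ratio was looked at after the calls were known and has no test of its own.

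ALDH1L2, a mitochondrial formyltetrahydrofolate dehydrogenase, had 77.7, 72.2 and 67.5 CPM in resistant libraries, against 33.9, 62.7 and 58.7 CPM in control libraries. Control replicate 1 was far below the other control libraries. The log2FC was 0.44 (SE 0.16, adjusted p = 0.0414 in edgeR), and 0.26 without control replicate 1 (adjusted p = 0.251). The call was also lost without resistant replicate 1 (0.12) or resistant replicate 2 (0.0896) and in DESeq2 (0.101). MTHFD1L, the mitochondrial formate-releasing synthetase, averaged 88.8 ± 8.33 CPM in resistant and 89.0 ± 3.13 CPM in control libraries, with a 95% interval of the log2FC from -0.26 to 0.25. MTHFD2, the mitochondrial dehydrogenase usually abundant in tumour cells, was not tested: it had 22, 2 and 7 counts in resistant libraries and 1, 18 and 4 counts in control libraries. Of its exon bases 29.7% are shared with SLC4A5 on the other strand, and the annotation holds 7 pseudogenes named after it. The part of either in these counts was not tested.

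Among the 7 other enzymes, ALDH18A1 rose. None was called lower in edgeR, with 0 also at an unadjusted p under 0.05, in DESeq2 and in limma-voom. Of all tested genes 11.7% were called higher and 12.3% lower, so a count of 0 among the 6 tested says little. ALDH18A1, which starts proline synthesis from glutamate, had 83.1, 113 and 95.7 CPM in resistant libraries, against 47.3, 61.2 and 66.3 CPM in control libraries (log2FC 0.72, SE 0.14, adjusted p = 0.000197 in edgeR). This was the largest increase of the 8. PYCR1, at the last step of proline synthesis, was not tested, with 4, 4 and 14 counts in resistant and 4, 15 and 6 counts in control libraries. ASNS, asparagine synthetase and a classical ATF4 target whose promoter site is shown above, had only 13, 27 and 33 counts in resistant and 10, 36 and 11 counts in control libraries. Its log2FC of 0.12 had a 95% interval from -0.86 to 1.10, so differences within those bounds are not excluded. Of the ASNS exon bases 79.7% are shared with AC079781.5, an annotated transcript on the same strand, and its part in the low counts was not tested.

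CTH and CBS, the enzymes of transsulfuration from homocysteine to cysteine, were not called. CTH averaged 107 ± 8.54 CPM in resistant and 85.9 ± 17.1 CPM in control libraries (log2FC 0.30, adjusted p = 0.0972 in edgeR), and passed without control replicate 2 (log2FC 0.45, adjusted p = 0.0258). CBS averaged 11.6 ± 4.44 CPM in resistant and 9.0 ± 0.873 CPM in control libraries and is uncertain, since a near-identical copy, CBSL, can share its reads. The mitochondrial enzymes GPT2, which makes alanine or 2-oxoglutarate, and PCK2, which makes phosphoenolpyruvate, had 95% intervals of the log2FC from -0.36 to 0.14 and from -0.21 to 0.33.

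Of the 9 amino acid transporters, SLC1A5 and SLC38A1 rose. None was called lower in edgeR, with 2 at an unadjusted p under 0.05, 1 in DESeq2 and 0 in limma-voom. Of all tested genes 11.7% were called higher, against 22.2% of these 9, and 12.3% were called lower. SLC1A5 and SLC38A1 both import glutamine and other neutral amino acids. SLC1A5 had 869, 942 and 933 CPM in resistant libraries, against 681, 746 and 699 CPM in control libraries (log2FC 0.37, SE 0.08, adjusted p = 0.00117 in edgeR). SLC38A1 had 1609, 1858 and 1862 CPM in resistant libraries, against 1335, 1515 and 1352 CPM in control libraries (log2FC 0.34, SE 0.08, adjusted p = 0.00207). The groups did not overlap for either gene, and 23.4% of the SLC1A5 exon bases are shared with an antisense gene. Their close relatives SLC38A2 and SLC1A4 both had a log2FC of 0.18 (95% intervals 0.02 to 0.34 and -0.03 to 0.38), and neither was called although all resistant libraries exceeded all control libraries. SLC38A2 passed without resistant replicate 1 (adjusted p = 0.0418 in edgeR) and in DESeq2 (0.0161).

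Among the members, the exchangers SLC7A11 and SLC7A5, which share the heavy chain SLC3A2, did not pass the test. SLC7A11, the cystine and glutamate exchanger that feeds glutathione synthesis, had 929, 1106 and 1100 CPM in resistant libraries, against 1244, 1212 and 1143 CPM in control libraries (log2FC -0.20, 95% interval -0.37 to -0.03, adjusted p = 0.0878 in edgeR). SLC7A5, which imports leucine and other large neutral amino acids, had 572, 609 and 632 CPM in resistant libraries, against 702, 717 and 670 CPM in control libraries (log2FC -0.20, 95% interval -0.38 to -0.03, adjusted p = 0.0792). For both, every resistant library was below every control library by a small margin, and both passed with library totals as the only scaling (adjusted p of 0.0476 for SLC7A11 and 0.0434 for SLC7A5 in edgeR), as did SLC7A5 in DESeq2 (0.0306). SLC3A2 itself averaged 847 ± 16.2 CPM in resistant and 847 ± 74.2 CPM in control libraries, with a 95% interval of the log2FC from -0.17 to 0.17. Per length, SLC7A5 was 0.349 ± 0.0175 of SLC3A2 in resistant and 0.405 ± 0.0365 in control libraries (SD, n = 3 each). The cationic transporter SLC7A1 had a 95% interval from -0.26 to 0.15, and the glycine transporter SLC6A9 from -0.50 to 0.15.

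Compared per transcript length, the members spanned a wide range of levels. SLC3A2 was the most abundant, at 968 ± 44.0 TPM in resistant and 985 ± 78.1 TPM in control libraries (SD, n = 3 each). By the mean over the 6 libraries, SLC38A2 (908 ± 50.2 TPM in resistant and 818 ± 33.9 TPM in control libraries) and PPP1R15A (845 ± 16.3 TPM in resistant and 793 ± 53.8 TPM in control libraries) came next, and differed from each other by less than their summed SDs in both groups. TRIB3 had 559.8 ± 31.6 TPM in resistant and 812 ± 96.4 TPM in control libraries, and in the control libraries it stood above PPP1R15A by less than their summed SDs. ATF4 had 769 ± 36.2 TPM in resistant and 537 ± 26.1 TPM in control libraries. At the other end CBS, ASNS, PYCR1 and MTHFD2 had the lowest levels, with ASNS at 6.0 ± 2.01 TPM in resistant and 5.55 ± 1.96 TPM in control libraries. Over the 18688 genes with a transcript length, ASNS stood at percentile 50.8, PYCR1 at 44.1 and MTHFD2 at 38.5 by mean TPM, while ATF4 stood at 99.2.

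**Figure D4:**
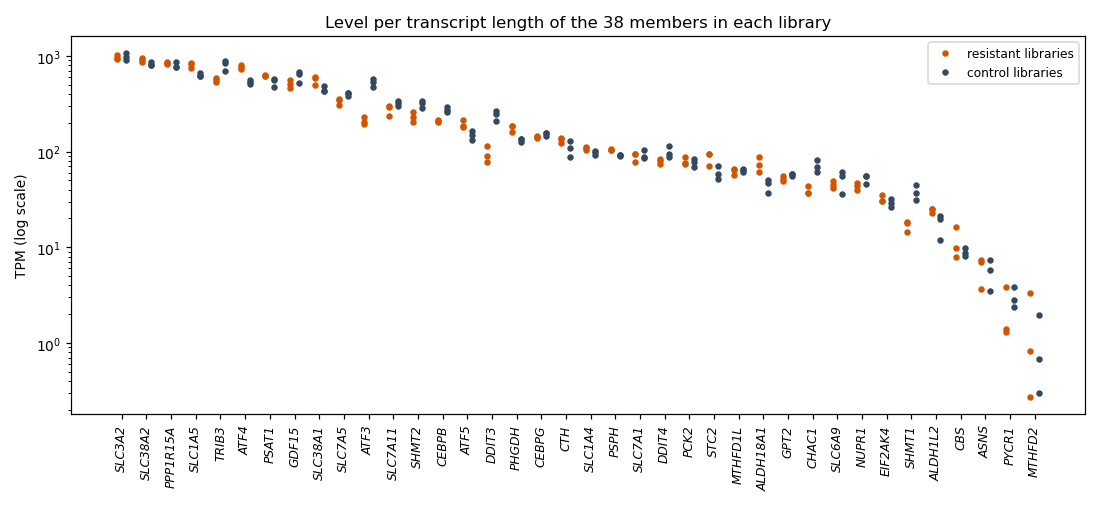
TPM of the 38 members in each library on a log axis, resistant points left of control points for each gene, in order of the mean over the 6 libraries. The levels run from SLC3A2, near 976 TPM, to MTHFD2, near 1.22 TPM, and CBS, ASNS, PYCR1 and MTHFD2 stand below the rest.

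Other genes of the pathway, in 6 lists, gave 14 higher and 16 lower among 86 tested of 111 in the table, 34.9% called beside 24.1% of all tested genes. By direction, 16.3% of these genes were higher and 18.6% lower, beside 11.7% and 12.3% of all tested genes. Among the eIF2 kinases, eIF2, eIF2B and their partners, 2 of 15 rose (13.3%) and 4 fell (26.7%). The alpha subunit gene EIF2S1, whose product the kinases phosphorylate, averaged 126 ± 17.2 CPM in resistant and 82.5 ± 6.32 CPM in control libraries, and EIF2S3, the gamma subunit, 144 ± 6.42 and 111 ± 15 CPM. EIF2AK1, the heme-regulated kinase, fell to 94.5 ± 12.3 CPM in resistant against 139 ± 9.72 CPM in control libraries, and the beta subunit EIF2S2 to 230 ± 26.9 against 314 ± 15.3 CPM. The subunits of eIF2 thus did not all move in the same direction.

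Among 18 tested genes that respond to ATF4 or belong with its partners and are not members, 6 fell (33.3%) and 1 rose (5.56%). Of all tested genes 12.3% fell and 11.7% rose. The median log2FC of the list was -0.38 beside -0.006 over all tested genes. The list was chosen with earlier results of these data known, and the part of that choice in this median was not tested. SESN2, an inhibitor of mTORC1, averaged 95.4 ± 10.9 CPM in resistant and 193 ± 42.8 CPM in control libraries (log2FC -0.99, adjusted p = 9.97e-08 in edgeR). The death receptor gene TNFRSF10B had a log2FC of -0.71, and the autophagy receptor gene SQSTM1, the one that rose, 0.32.

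Of 16 other amino acid transporters tested, 2 rose (12.5%) and 4 fell (25%), beside 11.7% higher and 12.3% lower of all tested genes. SLC7A2, a cationic amino acid transporter, had 60.1, 62.3 and 56.3 CPM in resistant libraries, against 22.6, 14.7 and 18.8 CPM in control libraries (log2FC 1.72, SE 0.19, adjusted p = 3.43e-09 in edgeR). SLC38A5, a transporter of glutamine and related amino acids, had 25.2, 26.1 and 28.0 CPM in resistant libraries, against 5.14, 10.2 and 8.80 CPM in control libraries (log2FC 1.64, SE 0.27, adjusted p = 1.21e-05). The taurine transporter SLC6A6 (log2FC -0.79) and SLC38A10 (-0.59) fell.

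Of 15 other folate and glycine cycle genes, 2 rose (13.3%) and 0 fell in edgeR, beside 11.7% higher and 12.3% lower of all tested genes. In either direction 13.3% of this list was called, beside 24.1% of all tested genes. The count of decreases was 0 also at an unadjusted p under 0.05, in DESeq2 and in limma-voom. GART, an enzyme of purine synthesis that uses formyl folate, averaged 347 ± 10.6 CPM in resistant and 197 ± 17.7 CPM in control libraries (log2FC 0.82, adjusted p = 2.93e-08 in edgeR), and SFXN1, the mitochondrial serine carrier, 76.0 ± 6.83 and 58.9 ± 4.95 CPM. Of 13 proline, glutamine, glutamate and aspartate enzymes, 4 rose (30.8%) and 0 fell in edgeR. The count of decreases was 0 also at an unadjusted p under 0.05, in DESeq2 and in limma-voom. Those that rose included argininosuccinate synthase ASS1 at a log2FC of 0.96 and glutamate dehydrogenase GLUD1 at 0.43. Of 9 genes of the methionine cycle, transsulfuration and glutathione synthesis, 3 rose (33.3%) and 2 fell (22.2%). MAT2A, which makes S-adenosylmethionine, had a log2FC of 0.48, and AHCY, another enzyme of the methionine cycle, 0.37. MPST (-0.55) and the glutathione synthesis subunit GCLM (-0.23) fell.

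**Figure D5:**
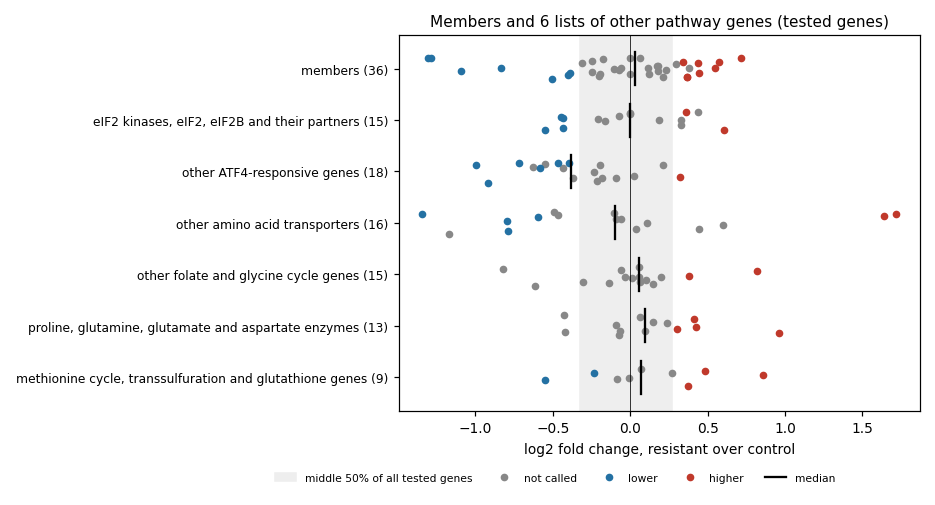
Log2 fold change, resistant over control, of each tested member and of each tested gene in the 6 lists of other pathway genes (points), with the median of each list (bar) and the middle 50% of all tested genes (grey band). The list of genes that respond to ATF4 or belong with its partners has a median of -0.38, and SLC7A2 and SLC38A5 stand at 1.72 and 1.64. The lists were chosen with earlier results of these data known.

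In gene span on GRCh38 (GENCODE 29, matched by symbol), ATF4 lies on the plus strand of chromosome 22 from 39519695 to 39522685. ATF3 lies on the plus strand of chromosome 1 from 212565334 to 212620777, and PHGDH on the same chromosome and strand from 119648411 to 119744226. Chromosome 12 holds DDIT3 (minus strand, 57516588 to 57521737) and SHMT2 (plus strand, 57229327 to 57234935). SHMT1 is on chromosome 17 (minus strand, 18327860 to 18363563), CHAC1 on chromosome 15 (plus strand, 40952962 to 40956519) and TRIB3 on chromosome 20 (plus strand, 362835 to 397559). ALDH18A1 is on chromosome 10 (minus strand, 95605929 to 95656706), SLC1A5 on chromosome 19 (minus strand, 46774883 to 46788594) and SLC38A1 on chromosome 12 (minus strand, 46183063 to 46270017). Which build the authors counted on is not stated in the labels.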

How the data were processed

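The authors deposited whole-number counts per gene symbol, not normalized, per the file headers; the combined table and the 6 single-library files held the same values. Per the submitters' processing notes the tools included Trimmomatic, HISAT2 and Bowtie2 (versions not named). Nothing states the read counter, build, annotation or use of strand, so antisense and near-identical genes cannot be told apart with certainty. Per the labels, total RNA was used. Among counts of 1 to 20, 81.8 to 88.5% were even, which would arise if both mates of each pair were counted, and counting errors would then be understated.

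Genes passing filterByExpr (10804) were scaled by TMM and tested with edgeR 4.0.16 (R 4.3.3; quasi-likelihood F test, group as the only term, Benjamini-Hochberg over all tested genes, threshold 0.05), after a check on simulated data. The SE is the log2FC over the square root of F, and intervals are 95%. Alternatives were other scalings, filters, DESeq2 1.42.0, limma-voom 3.58.1, a replicate block, halved counts and left-out libraries. TPM used the longest coding transcript in GENCODE 29. On halved counts, replicate libraries gave 1.78 to 2.86 for chi-square over its degrees of freedom, more than sampling noise. Members and lists were chosen with earlier results of these data known. Called members are given in every library; of each other list, the 2 called genes with the smallest p per direction are named. Of the 113 other listed genes 111 were matched. Figures used matplotlib 3.10.9.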

Additional observations from a re-analysis of the deposited data

How the results depend on the processing

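Of the 15 called members, 10 kept the call and direction in each of the 16 alternatives run, and 5 lost it in at least 1: ATF5, CEBPB, SHMT2, ALDH1L2 and SLC38A1, the last only without control replicate 1 and resistant replicate 3 together (adjusted p = 0.0811 in edgeR). None of the called members changed sign. Of the 21 tested members not called, 6 passed in at least 1 alternative. Leaving out 1 library gave 13 to 16 called members and 2001 to 2261 called genes, and over these and the pair left out together 5 to 9 members were called higher. At an adjusted p of 0.01 the comparison called 1651 genes (800 higher, 851 lower), 13 members and 18 of the other pathway genes, in place of 2601, 15 and 30, since that threshold is stricter. Without control replicate 1 and resistant replicate 3 together 5 members were called higher, and fewer libraries were then tested.

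The replicate number was no sign of pairing: deviations of same-numbered libraries correlated at -0.015, 0.033 and -0.0065, and not every library correlated best with its own number. The replicate block gave 15 called members, all shared with the fit without it, 2518 called genes and 25 other pathway genes. Counts were lowest for ASNS, CBS, PYCR1 and MTHFD2. The parts of depth, overlapping annotation and near-identical copies in this were not tested.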

Other observations

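The positions of the called members were set beside the tested genes within 1 Mb of each, a description made after the calls were known. Over all tested genes 11.7% were called higher and 12.3% lower, with a median log2FC of -0.006. SHMT2 and DDIT3, both lower in resistant cells, start 0.287 Mb apart on chromosome 12, and among the 28 tested neighbours of DDIT3 5 were called higher and 4 lower, with a median log2FC of -0.13. SLC38A1 and SLC38A2 start 0.175 Mb apart on the same chromosome, and for both all resistant libraries exceeded all control libraries. ALDH18A1 on chromosome 10 had 7 tested neighbours, 2 of them called higher, with a median of 0.22, and STC2 on chromosome 5 had 9, 4 higher and 1 lower, with a median of 0.28. PHGDH on chromosome 1 rose although its 7 tested neighbours had a median of -0.36 and 2 of them were called lower. CEBPB on chromosome 20 fell although its 17 tested neighbours had a median of 0.23, with 4 called higher and 1 lower. ATF4 on chromosome 22 rose, and its 18 tested neighbours had a median of -0.16, with 2 higher and 1 lower. For the called members not named here, the medians ran from -0.11 to 0.05. Around ATF3, also on chromosome 1, 4 of 14 tested neighbours were called lower, with a median of -0.18, beside the -1.29 of ATF3 itself. The part of position in any of these changes was not tested.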
